A study of Trachinotus blochii with 12 samples.

Results

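The gene models described here are 96 of the 18490 measured in Trachinotus blochii, the golden pompano, a farmed sea fish. They were selected on their deposited values in liver and brain. Each had a value below 1 in all 3 livers of hypoxia-tolerant (Tol) fish and of at least 1.5 in all 3 livers of hypoxia-intolerant (Intol) fish. Their brain difference, the mean log2(value + 1) in Tol minus that in Intol, was below 0.25 in size, and ceilings of 400 on the liver mean and 200 on the brain mean removed 0 of them. The members were thus chosen by values of all 12 libraries, and the Tol-against-Intol values below are a description without a test.

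All fish were 2 months old, fasted, and held in 3 tanks at 0.9 mg/L dissolved oxygen, reached within 2 h by bubbling nitrogen. Each tank held 80 fish, and 14 per tank were taken for each status, 42 in all. Intol fish were dying, with lost balance, within 1 h of this hypoxia, and Tol fish were still normal at 24 h. Each status gave 3 liver and 3 brain libraries of mRNA, with 2 groups per tissue and no group at normal oxygen. Status and hours of hypoxia and fasting differed together and cannot be told apart, and the labels name neither the number of fish behind a library nor their tank, so the spread between libraries may be technical.

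Liver stores glycogen, releases glucose, handles lipids and makes most plasma proteins, and making proteins is costly in oxygen. Vertebrate cells short of oxygen stabilise hypoxia-inducible factors and cut back costly processes such as protein synthesis. A gene model is a predicted transcript of a genome, and the identifiers here carry the name of GLEAN, a program that merges gene predictions. No source used here links these identifiers to gene names, so neither functions nor cell type markers could be read, and the tissue labels were not checked against markers. In bulk tissue, fewer cells of a type and less RNA per cell cannot be told apart.

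The unit was taken to be FPKM (fragments per transcript length and library size), and values summed to 360680 to 622240 per library. Livers had 8306 to 9319 gene models at a value of 1 or more and brains 13899 to 14226. The absolute depth is unknown, and the relative value of 1 fragment was estimated from the most common ratio of low values between libraries. Relative to the mean of the 6 livers, the estimates were 0.944, 1.05 and 1.01 in Tol replicates 1 to 3 and 0.987, 1.05 and 0.969 in Intol. These relative values of the Tol and Intol livers overlapped, and the largest misfit between pairs was 0.05 on the log2 scale. The peak behind each pair was weak, with 10.5% to 29.1% of 103 to 231 gene models within 0.1 (log2) of it. Values already scaled to library size can peak near equal levels without single fragments being seen, so the estimates may not show depth. Median-ratio factors, which follow the middle of the gene models above 0 in all 6 livers, did separate the groups. They were 0.874 to 0.955 in Tol and 1.06 to 1.16 in Intol livers.

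The members were low in Tol liver rather than undetected, although the working description of the set calls them below detection. Their median value in Tol livers 1 to 3 stood at 0.560, 0.720 and 0.660, and Intol livers 1 to 3 had medians of 2.05, 1.96 and 2.85. By the rule every Tol value lay below every Intol value of the same member, as was also so for 40.1% of the 9109 gene models tested in liver, and Intol replicate 3 had the highest median. Of 288 single Tol values, 4 were listed at 0 and 211 were 0.5 or more, and 94 members were above 0 in all 3 Tol livers. A single member was listed at 0 in every Tol liver and 1 more in a single Tol liver.

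**Figure D1:**
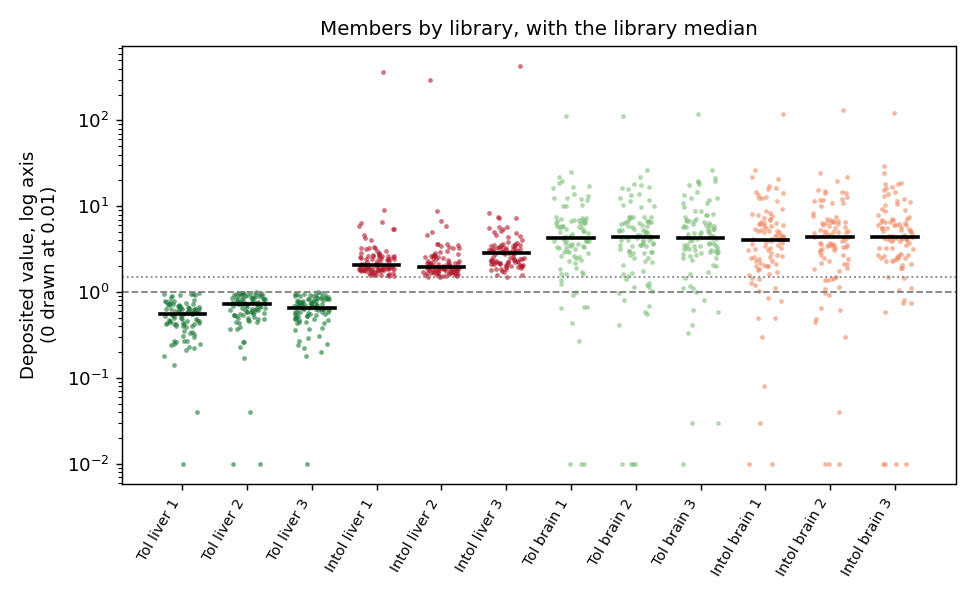
Each point is 1 of the 96 gene models in 1 library, with the deposited value on a log axis, values of 0 drawn at 0.01, and black bars for library medians. Dashed and dotted lines mark the limits of 1 and 1.5. Most Tol liver points sit between 0.1 and 1, with medians of 0.560 to 0.720, and the brain medians of 4.10 to 4.41 overlap between the groups, whose brain difference the rule limits.

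The size of the liver difference was modest for most members. For the 95 with a Tol value above 0, the Intol mean was 2.00 to 28.8 times the Tol mean, with a median of 3.79 and quartiles of 3.05 and 4.99. It was at least 3 times for 72 members, at least 5 times for 23 and at least 10 times for 8. The lowest Intol value was 1.66 to 11.6 times the highest Tol value of the same member, and at least 2 times for 77. On the log2(value + 1) scale, which understates changes of low gene models, the median difference was -1.02, where the median over all 9109 gene models tested in liver was -0.20. The limma test called all 96 lower in Tol liver against a background of 29.6% of gene models tested, and nothing is read from that count, since the rule used this contrast and the members passed the filter only through the Intol livers.

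**Figure D2:**
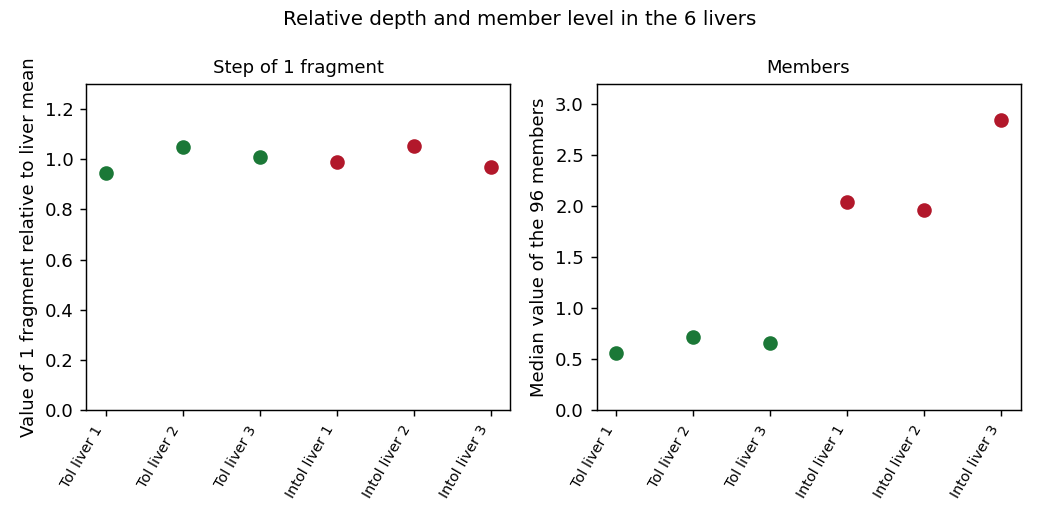
Left, the estimated value of 1 fragment in each liver library relative to the mean of the 6 livers. Right, the median deposited value of the 96 members in the same libraries. Tol and Intol livers are mixed on the left, between 0.944 and 1.05, and the separation on the right, at 0.560 to 0.720 and 1.96 to 2.85, is fixed by the limits of 1 and 1.5 that chose the members.

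Trachinotus_GLEAN_10013992 stood far apart from the other members. All 3 Tol livers listed it at 0, while Intol livers 1 to 3 reached 366.65, 296.41 and 433.15. Tol brains held it at 0.27, 0 and 0.33, and Intol brains at 0.08, 0.04 and 0. The next member had an Intol liver mean of 7.04, so this gene model alone made up 59.3% of the members' summed Intol liver values. The gene model numbered just before it had 228.53, 716.75 and 102.57 in Tol and 0, 1.08 and 0 in Intol livers. The one numbered just after it was high in both groups, with Tol livers at 290.23, 562.40 and 278.15 and Intol livers at 144.50, 249.17 and 190.57. No brain library exceeded 0.33 for any of these 3 consecutive models. The values of this run are uncertain, because reads shared between similar or overlapping models could have been counted to any of them, and their sequences were not used here.

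Without that gene model, the 95 others had Intol liver means between 1.54 and 7.04, with a median of 2.28. Summed over these members, Tol livers came to 59.3 ± 6.9 and Intol livers to 251 ± 38 (SD, n = 3), and Tol and Intol brains to 655 ± 16 and 657 ± 31. By library, the sums in Tol livers were 51.5, 64.6 and 61.7 and those in Intol livers 237, 223 and 295, without overlap. Tol brains had sums of 656, 639 and 671 and Intol brains of 632, 648 and 692. The brain groups overlapped, and the rule limits the brain difference of each member.

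The limits of the rule cut through a continuous range. In 25 members the highest Tol value was between 0.9 and 1, with medians of 0.797 for the Tol and 2.17 for the Intol liver mean. Another 36 gene models that met every other limit had a highest Tol value from 1 to under 1.1, with medians of 0.895 and 2.18. At the other limit, 14 members had a lowest Intol value from 1.5 to under 1.6, and 21 gene models outside had one from 1.4 to under 1.5. With the Tol limit at 0.5 only 7 gene models met the rule, and with it at 2 there were 772. Without Intol liver replicate 2, 159 met it.

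Over all 9109 gene models tested in liver, limma called 682 higher and 2699 lower in Tol at an adjusted p under 0.05. This excess was seen in the values as deposited only. Median-ratio scaling gave 1513 higher and 1551 lower, and quantile normalization 1535 and 1582. The rule found few gene models in the direction opposite to the members. With the groups exchanged, 10 gene models were below 1 in all Intol livers and at least 1.5 in all Tol livers within the same brain limits. The balance depended on scaling. After median-ratio scaling within each tissue the numbers were 57 and 18, and 53 of the 96 members still met the rule. After quantile normalization they were 53 and 19, with 48 of the 96. The members' median liver difference was -0.85 after median-ratio scaling, where that of all gene models tested was 0.03, and this difference too comes from the livers that chose the members.

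The members were a thin lower edge of the gene models expressed at this liver level. Such gene models had at least 1.5 in all Intol livers and an Intol mean up to 7.04, within the liver and brain ceilings. The 95 members made up 2.39% of these 3978. Their share was 7.89% of 355 gene models with an Intol mean from 1.5 to under 2 and 3.70% of 1217 from 2 to under 3. It was 1.05% of 1523 from 3 to under 5 and 0.680% of 883 from 5 to 7.04. A limit of 1 on the Tol value is easier to meet from a lower Intol level. The other 3883 had a median Tol liver mean of 2.81 and a median Intol liver mean of 3.48, and all Tol values lay below all Intol values for 39.6% of them, near the 40.1% of all gene models tested in liver.

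**Figure D3:**
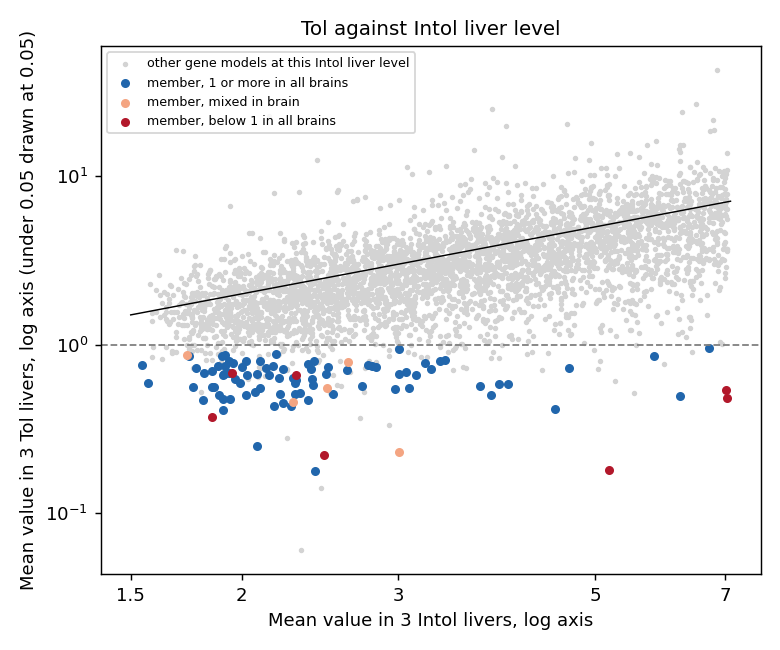
Mean value in the 3 Intol livers (x) against the 3 Tol livers (y), both on log axes. Shown are the 95 members with an Intol mean up to 7.04 and, in grey, the other gene models at that level. The grey points were drawn without the ceilings on the liver and brain means. The black line marks equal values and the dashed line a Tol mean of 1. Members lie below the dashed line, and grey points there had a Tol value of 1 or more in some liver or a brain difference outside the limit.

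Intol liver replicate 3 carried the highest value for most members. It was the highest of the 3 Intol livers for 73 of 96 members, replicate 1 for 15 and replicate 2 for 8. Among the 3883 other gene models at this level, replicate 3 was the highest for 39.6% and replicate 1 for 39.2%. Its estimated relative value of 1 fragment was 0.969, inside the range of the other livers, and the part of replicate 3 in the result was not tested. Without it, 103 gene models met the rule. The 96 members were necessarily among them, since leaving a liver library out only takes limits away. In Tol livers, replicate 1 was the highest for 12 members (12.5%), replicate 2 for 43 (44.8%) and replicate 3 for 38 (39.6%). Among the 3883 others these shares were 34.6%, 39.8% and 24.6%, and the difference was not tested.

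Most members were expressed in brain, with a lower median level than the other gene models in their Intol liver range. The median brain mean was 4.27, and 83 of the 96 had a value of 1 or more in all 6 brains, 8 were below 1 in all 6 and 5 were mixed. Among the 95 members without Trachinotus_GLEAN_10013992, 87.4% were at 1 or more in all brains and 7.37% below 1 in all, with a median brain mean of 4.34. Of the 3883 other gene models at that Intol liver level, 94.4% were at 1 or more and 3.22% below 1 in all brains, with a median brain mean of 9.81. The limit of 0.25 on the brain difference was applied to the members and not to these others. On the log2(value + 1) scale, gene models near 0 in brain meet that limit easily, so the shares are not independent of the rule. These others also had a higher median Intol liver mean, 3.48 against 2.28, and the difference in brain level was not tested. Tol brains had library medians of 4.29, 4.33 and 4.30, and Intol brains of 4.10, 4.38 and 4.41, so the groups overlapped. The rule held the brain difference between the groups below 0.25, and it ran from -0.23 to 0.25 among members with a median of 0.02. Of the 88 members tested in brain, limma called 0 between Tol and Intol at an adjusted p under 0.05, against 0.0212% of all gene models tested. At an unadjusted p under 0.05 (limma) there were 4, against a background of 17%, and both counts are limited by the rule. The condition on brain removed 28 of 124 gene models that met the liver limits, 15 higher and 13 lower in Tol brain.

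**Figure D4:**
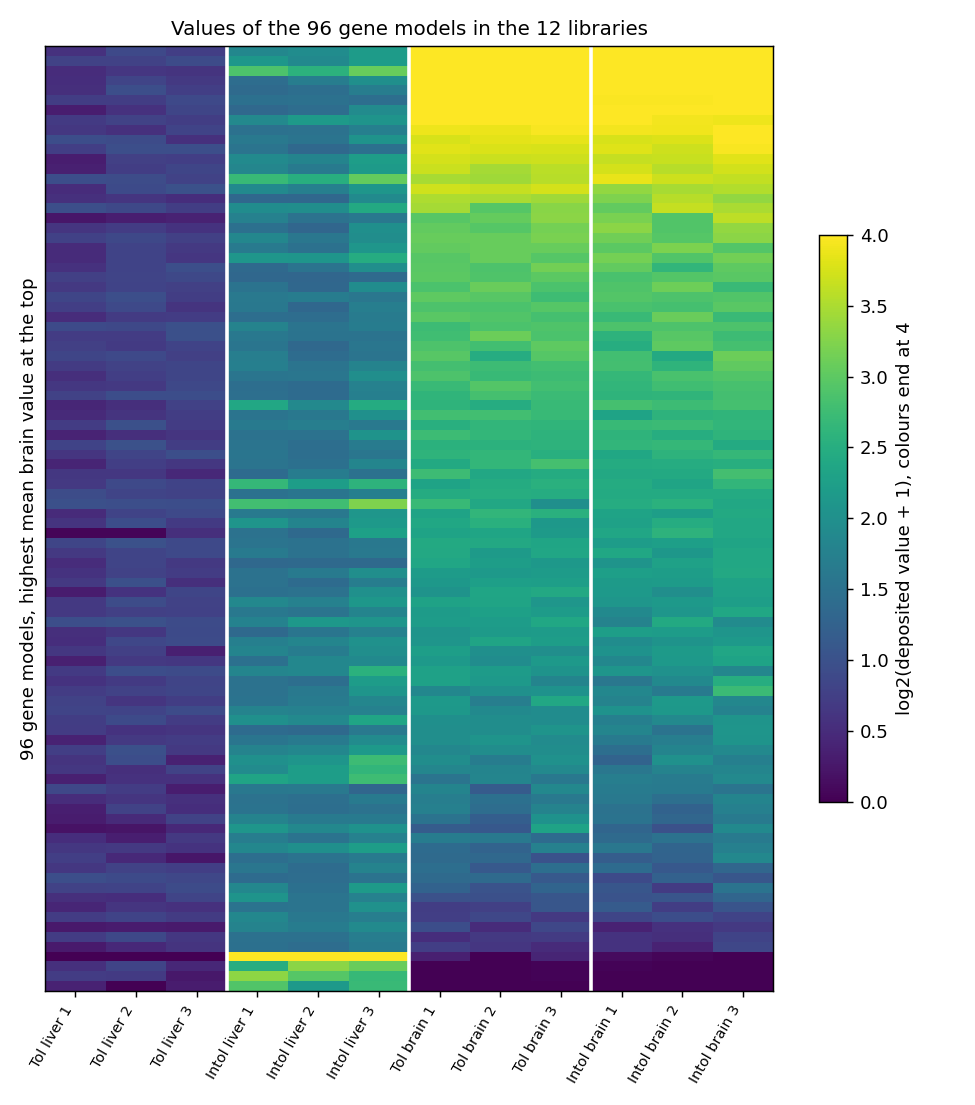
Rows are the 96 gene models, ordered by mean brain value, and columns the 12 libraries. Colour is log2(value + 1), with the scale ending at 4. The Tol liver columns are dark throughout, and the Intol liver columns are brighter in every row. The brain columns grade from bright to dark alike in Tol and Intol, and the bottom rows are brighter in Intol liver than in any other column.

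Trachinotus_GLEAN_10010137 had the highest brain level of the members. Tol brains gave 114.09, 111.31 and 117.31 for it, and Intol brains 118.57, 130.88 and 120.62. Tol livers gave 0.48, 0.85 and 0.67, and Intol livers 2.60, 2.85 and 3.56. The Intol liver mean of 3.00 ± 0.50 was 4.50 times the Tol mean of 0.667 ± 0.185 (SD, n = 3). This gene model was thus expressed mainly in brain, where Intol fish had 41.1 times the Intol liver mean in the values as deposited. Median-ratio factors between the tissues were 0.519 to 0.561 in Intol livers and 1.79 to 1.95 in Intol brains. Scaling by them would lower that ratio. The models numbered before and after it were at 43.86 to 52.53 and 47.61 to 64.53 in the 6 brains, and at 1.72 to 2.39 and 0 to 0.03 in the 6 livers.

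The 8 members below 1 in every brain included 4 of the 10 with the highest Intol liver means. Trachinotus_GLEAN_10013992 was the first of them. The members ranked 2 and 3 by Intol liver mean did not exceed 0.03 in any brain. The member ranked 2 had 0.64, 0.60 and 0.20 in Tol and 9.04, 6.69 and 5.39 in Intol livers. The member ranked 3 had 0.47, 0.77 and 0.36 in Tol and 4.65, 8.87 and 7.53 in Intol livers. The member ranked 7 was the only one listed at 0 in all 6 brains and had the widest ratio of Intol to Tol mean among the 95 members with a Tol value above 0, with 0.30, 0 and 0.24 in Tol and 6.53, 3.47 and 5.53 in Intol livers. The other members below 1 in every brain ranked 35, 45, 72 and 87, with Intol liver means of 2.47, 2.30, 1.95 and 1.85. Their brain values were higher, at 0.30 to 0.92. Among the 7 of the 8 members with a Tol value above 0, the ratio of Intol to Tol mean was 2.90 to 28.8 with a median of 11.2. Among the 83 members at 1 or more in all brains it was 2.03 to 13.7 with a median of 3.77. The ratio comes from the values that chose the members, and this difference was not tested.

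Brain and liver were compared within Intol fish, because the rule holds the Tol livers below 1. Of the members, 8 were below 1 in every brain. By limma over 14285 gene models, 57 of 96 members were higher in Intol brain than in Intol liver and 17 were lower at an adjusted p under 0.05, while 22 were not called. The backgrounds were 77.9% higher and 13.5% lower, and the median change was 0.70 for members and 1.46 for all gene models tested. The rule sets a floor on the Intol liver value and a ceiling on the brain mean, so the counts are not independent of it. The split turned with scaling between the tissues. After median-ratio scaling 11 members were higher and 60 lower in Intol brain, against backgrounds of 46.9% and 35%, with a median change of -0.61 for members and 0.22 for all. Without Intol liver replicate 1, 2 or 3 the members lower in brain numbered 8, 9 and 7. The 8 members below 1 in brain then no longer reached the filter of 3 libraries, and 88 members were tested. Without replicates 1 and 3, fewer members were called lower than the loss of these 8 alone would leave.

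The 57 members called higher in Intol brain changed by 0.38 to 4.96 on the log2(value + 1) scale, and all were at 1 or more in every brain. Trachinotus_GLEAN_10010137 had the change of 4.96 ± 0.12 (SE; limma adjusted p = 2.11e-08). The member ranked 5 by Intol liver mean was also higher in brain, at 20.84, 22.10 and 24.16 against 6.39, 4.95 and 7.37 in Intol livers, and it was at 0.42, 0.55 and 0.52 in Tol livers. The 17 called lower held all 8 members below 1 in every brain, the 5 mixed ones and 4 others, with changes of -8.44 to -0.38. Trachinotus_GLEAN_10013992 had the lowest, -8.44 ± 0.15 (SE; limma adjusted p = 5.71e-09). Both named gene models were picked for the highest Intol liver or brain mean, so nothing is read from their p-values. The 8 members below 1 in every brain also passed the filter only through the Intol livers. The member ranked 8 is an example of the 22 not called, with 4.50, 4.07 and 5.22 in Intol brains and 5.37, 3.66 and 5.00 in Intol livers, while its Tol livers were at 0.58, 0.85 and 0.75.

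**Figure D5:**
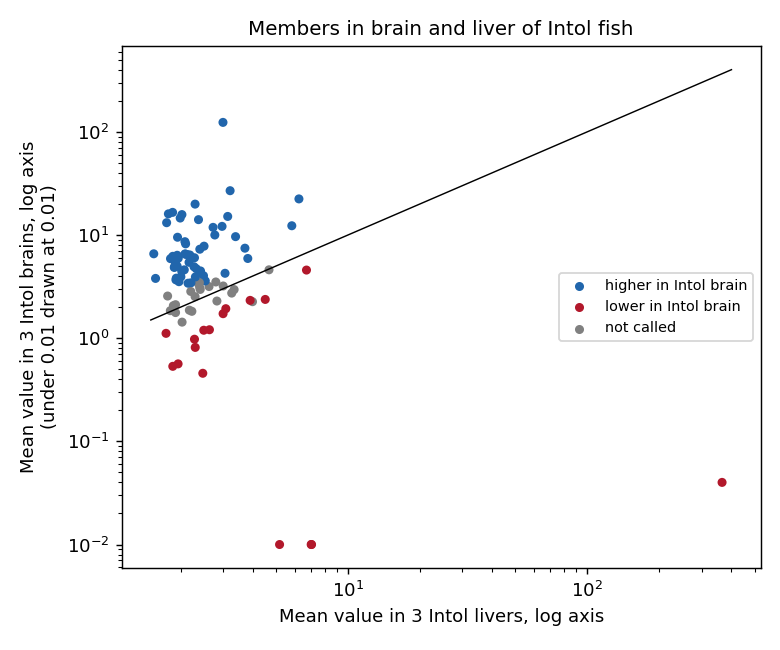
Mean value in the 3 Intol livers (x) against the 3 Intol brains (y) on log axes, for the 96 members, with brain means under 0.01 drawn at 0.01. Colours give the limma call in the values as deposited, and the line marks equal values. Of the members, 57 were called higher in brain, 17 lower and 22 not.

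Levels of members were also set side by side between groups. Across the 95 members without Trachinotus_GLEAN_10013992, which are not independent replicates, Spearman's rho between group means was 0.991 for Tol and Intol brain, which the limit of 0.25 on the brain difference fixes near 1. It was -0.053 for Tol and Intol liver, where the limits of 1 and 1.5 narrow both ranges. Nothing is read from either value. The median SD between replicates on the log2(value + 1) scale was 0.123 among Tol livers and 0.188 among Intol livers. It was 0.110 among Tol brains and 0.146 among Intol brains. For the other gene models at the same Intol liver level, these medians were 0.149, 0.167, 0.0832 and 0.111 in that order. The limit of 1 narrows the members' SD in Tol livers, and the differences were not tested.

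By the numbering of the gene models, 4 of the 96 members lay in 2 pairs with consecutive numbers. The number of pairs in other sets of this size was not worked out, so nothing is read from this count. In the first pair, the member ranked 6 had 0.93, 0.90 and 0.73 in Tol and 5.49, 4.66 and 7.32 in Intol livers. Its partner had 0.93, 0.89 and 0.47 in Tol and 2.06, 1.90 and 3.16 in Intol livers. Both were at 9.80 or above in every brain. Of the 97 gene models tested in liver that are numbered next to a member without being one, 57.7% had all Tol values below all Intol values, beside 40.1% of all gene models tested, and 10.3% had them above, beside 12.3%. Their median liver change was -0.34, against -0.20 over all. Positions in the genome are not in the files, and neighbouring models that overlap can share reads, so this was not tested further.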

How the data were processed

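Per the labels' protocols, TruSeq libraries from RNA of integrity number above 8 were sequenced as 125-bp paired ends, and filtered reads were assembled with Trinity. The deposited values name no unit and were taken as FPKM, since fractions occur and library sums are unequal. The sources used here do not give the aligner, counting tool, annotation or normalization. The file of Intol brain replicate 2 also held a block headed as Intol brain replicate 1, whose 18490 values all equal that library's own file, and this block was not used.

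The rule was applied to values as deposited. limma 3.58.1 in R 4.3.3 was run on log2(value + 1), with group means, robust moderation and a variance trend. Gene models that reached a value of 1 in 3 or more fitted libraries were tested, and Benjamini-Hochberg adjusted p under 0.05 over all of them counted as a call. The value of 1 fragment was estimated from gene models listed at 0 in some library of the tissue. The estimate used the most common log2 ratio of values between 0.1 and 2 in each pair of libraries. Both steps were also run on simulated data, and the outcomes are not reported here. The limma simulation changed only gene models with a mean log2(value + 1) above 2. Most members lie below this in liver, so it does not cover their low range. Python 3.11.15 with NumPy 2.4.6, pandas 2.3.3, SciPy 1.17.1 and matplotlib 3.10.9 served for tables and figures.

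The members, tests and alternatives were chosen with earlier results of these data known. Since gene models have no names here, 2 are identified: the member with the highest Intol liver mean and the one with the highest brain mean. Others are given by rank of their Intol liver mean, picked after their values were seen. Gene lists set up for cell types, hypoxia and metabolism matched 0 gene models and were not run.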

Additional observations from a re-analysis of the deposited data

How the results depend on the processing

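Of 76 alternative values, 62 stayed within 1.5 times the reported count. Many of these could hardly move, since the rule used the liver contrast of the members and limits their brain difference. The number of gene models that met the rule, 96 as reported, was 57 after median-ratio scaling, 53 after quantile normalization, 7 and 772 with Tol limits of 0.5 and 2, and 306 and 11 with Intol limits of 1 and 3. With each liver library left out it was 103 to 159, as fewer values then had to meet the limits. Without Intol brain replicate 3, an alternative added after the data were seen, 92 met it, 83 of them members. Members higher in Intol brain than in Intol liver, 57 as reported, numbered 11 after median-ratio scaling and 10 after quantile normalization. Members lower numbered 60 and 74 in place of 17, since both scalings move the middle of all gene models. Of all 14285 gene models tested, these scalings called 6694 and 5920 higher in Intol brain, against 11122 as deposited. They called 4999 and 5664 lower, against 1927. With each library left out those lower numbered 7 to 16 and those higher 54 to 60. Over all 9595 to 13779 gene models tested, these fits called 1382 to 1904 lower and 6239 to 11186 higher. The liver test gave no value for members without an Intol liver, because the filter then removed them all.

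The replicate number as a block left the liver calls among members at 96 and the brain calls at 0. It gave 59 members higher and 19 lower between the tissues. Over all gene models tested, the block fits called 2727 of 9109 lower in Tol liver. In brain they called 3 higher and 12 lower of 14146. Between the tissues they called 11192 higher and 1962 lower of 14285. Same-numbered libraries deviated together at correlations of -0.12 to 0.10 in liver, -0.08 to 0.18 in brain and 0.05 to 0.13 between Intol liver and brain, where each library correlated best with its own number, a hint from the data and not from the labels. Not every pair exceeded 0.1 in any of the comparisons and the labels give no link, so the numbers were not taken to pair the libraries. The estimated value of 1 fragment concerns the relative and not the absolute depth, so counting error of the low Tol values could not be given.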
